A study of Capra hircus with 3 samples.

Results

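The candidates described here are 40 short RNA sequences of cashmere goat skin that were predicted as miRNAs and were not annotated with a cattle miRNA name in the list held here. The copy of the candidate table used here holds 44 sequences, and 4 of them were left out because the annotation of the same reads gives them a conserved name (novel_mir_3 as bta-mir-6123, novel_mir_13 as bta-mir-3432-2, novel_mir_20 as bta-mir-6119 and novel_mir_24 as bta-mir-6529). That copy holds only part of the candidates of the study, and the list of conserved tags is shortened too, so candidates outside the copy were not analysed here and some of the 40 may have a conserved name outside the list. The reads come from full skin of adult Shanbei White cashmere goats in anagen, when the hair follicle grows, in catagen, when it regresses, and in telogen, when it rests. Each stage is 1 small RNA library from the mixed RNA of 10 goats, so no difference between stages can be told apart from a difference between pools. Reads of every clean tag, which is a distinct read sequence with its count, that shared the first 18 nt of a candidate were summed into a start group. Novel_mir_8 and novel_mir_34, novel_mir_10 and novel_mir_37, novel_mir_14 and novel_mir_27, and novel_mir_29 and novel_mir_42 differ only at the 3′ end and share a start group, which leaves 36 start groups among the 2740576 of the 3 libraries.

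A miRNA is cut from a hairpin-shaped precursor, first by Drosha in the nucleus and then by Dicer in the cytoplasm, and 1 strand of the resulting duplex is loaded into an Argonaute protein. Targets are recognised mainly through the seed, bases 2 to 8 from the 5′ end, so the 5′ end of a miRNA is usually precise, whereas its 3′ end is often trimmed or extended by added bases. Fragments of other abundant RNAs, such as tRNA and rRNA, are cloned by the same method. Mature tRNA carries the letters CCA at its 3′ end, which are added after transcription and are not encoded in the tRNA genes of mammals, and its T-loop holds an adenosine that is often methylated and is then misread by reverse transcriptase. All candidates were predicted from the reads of these same libraries, so their presence in them is not independent evidence of anything.

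The most-read candidate and its relatives are shown first because they differ by few bases from each other and from much more abundant tags. Letters are those of the deposited reads, with T for U, from 5′ to 3′, and capitals mark the seed.
novel_mir_1: gTTTCCCGgcccatgcacca
novel_mir_2: gTTTCCTGgccaatgcacca
novel_mir_9: gTTTCCCAgccaatgcacca
novel_mir_19: gTTTCCCGgccaatgcatca
novel_mir_18: cGTTTCCTggccaatgcacca
novel_mir_5: aGGTCCCTgttctggcgcca
novel_mir_28: aGGTCTCTgttcgggcgcca
novel_mir_21: tCAGTCCCtgttcgggcgcca

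The abundant tags beside them follow, with the base that differs from the named candidate in capitals. The first reads as the 3′ end of a glycine tRNA and the last as that of a lysine tRNA, from general knowledge of mammalian tRNAs and not from a match to a goat sequence.
tag beside novel_mir_1: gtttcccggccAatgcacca
tag beside novel_mir_18: cgtttccCggccaatgcacca
tag beside novel_mir_5: aggtccctgttcGggcgcca

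The candidates rich in G and C are shown because they held the largest share of the reads. Capitals again mark the seed, and the line after 3 of them gives the tag that was most read in their start group.
novel_mir_16: aGGCGCCGccgccccctccc
most-read tag of novel_mir_16: aGGCGCCGccgccccctcccacgc
novel_mir_23: cGGGGCCGggggccgggcgc
most-read tag of novel_mir_23: cGGGGCCGggggccgggcgcgt
novel_mir_36: cCCGGCGGcgggggcggtcc
most-read tag of novel_mir_36: cCCGGCGGcgggggcggtccacc
novel_mir_25: gTCTGCCTcggccggtcgtcg
novel_mir_33: cGCCCCCTccccggccccct

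The last set holds candidates whose reads share 1 sharp 5′ end, lie on both arms of a hairpin, or are the opposite strand of a known miRNA.
novel_mir_15: tAGAGAAGcactgggggaaagt
novel_mir_10: aTCGGCCTtccaccgctccc
novel_mir_4: tCAAGGTCcgctgtgaacacgg
novel_mir_22: tGGGCTGGagctggacctggcat
novel_mir_44: tGACCTCTgacctttgcctccca
novel_mir_11: tAGCCAGTtggggaagaatgcc
novel_mir_12: aTTGTTCTccaacctggctcttt
novel_mir_7: aTCATGTAtgatactgcaaaca
novel_mir_41: gCATTCTCcacggctgaattt
novel_mir_32: aCTCCGGTggaatgaaggac
novel_mir_31: cACATGGAgttgctgttacaa

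Values are given in the order anagen, catagen, telogen. The libraries held 15997828, 18111912 and 27016012 clean reads in tags of 18 to 44 nt. A level of 1 TPM, that is 1 read per 1000000 clean reads, is 16.0, 18.1 and 27.02 reads, and a tag that was not seen may have up to 3 reads, or 0.188, 0.166 and 0.111 TPM, respectively. Tags of 18 and 19 nt made up 6.10%, 3.51% and 2.37% of the reads, so the libraries differ in how many short fragments they hold. The epithelial miRNA miR-205 was present in each library, with 15991, 32571 and 50553 reads of tags that hold its letters opposite novel_mir_32. Intervals given below are 95% intervals that cover counting error only, since PCR copies are not independent molecules.

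The 36 start groups were rare. Together they held 935, 1480 and 2755 reads, which is 58.4 TPM (exact Poisson interval 54.8 to 62.3), 81.7 TPM (77.6 to 86.0) and 102 TPM (98.2 to 105.9). The lowest start group, novel_mir_31, had 8 reads in all and the highest, novel_mir_1, had 1287, with a median of 33.5, and 27 of the 36 had under 100 reads over the 3 libraries. Only 13 reached 1 TPM in any library, and the other 23 held 8 to 54 reads and stayed at or under 0.994 TPM. At least 1 read was found in all 3 libraries for 35 of 36, the exception being novel_mir_21 with 0, 7 and 4 reads. At a minimum of 10 reads in each library, 16 of 36 were left.

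Candidates were 20 to 24 nt long, with 14 of 20 nt, 9 of 21 nt, 10 of 22 nt, 5 of 23 nt and 2 of 24 nt. T was the first base of 15 candidates, A of 12, C of 7 and G of 6. Weighted by reads the order was another, as start groups that begin with C held 37.3% of the reads and those with G 35.4%, against 16.4% for A and 10.9% for T. The GC content ran from 31.8% in novel_mir_6 and novel_mir_7 to 100% in novel_mir_23, with a median of 55%. In the start groups, 31.5% of the reads were 20 nt long, 10.7% were 21 nt, 14.8% were 22 nt and 15.3% were 23 nt.

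The reads fell into 3 sets of candidates, which were chosen after their values were seen. The 8 candidates of the first block of sequences, 7 of which end in CCA and the 8th, novel_mir_19, in TCA, held 1793 of the 5170 reads (34.7%). The 5 candidates with a GC content of 75% or more (novel_mir_16, novel_mir_23, novel_mir_25, novel_mir_33 and novel_mir_36) held 2390 reads (46.2%). The other 27 candidates, in 23 start groups, shared the last 987 reads (19.1%). The summed level differed between libraries in the first and the second set. The first set stood at 20.8 TPM (18.6 to 23.2), 22.0 (19.9 to 24.3) and 39.3 (36.9 to 41.7). Novel_mir_1 and novel_mir_19 alone made the higher value in telogen, with 16.9, 18.1 and 36.4 TPM, whereas the other 6 stood at 3.94, 3.92 and 2.89 TPM. The GC-rich set stood at 21.3 TPM (19.1 to 23.6), 43.4 (40.4 to 46.5) and 46.8 (44.2 to 49.4). The level of the other 27 candidates was 16.4 TPM (14.5 to 18.5), 16.3 (14.5 to 18.3) and 15.9 (14.4 to 17.5), with overlapping intervals in all 3 libraries. These summed levels are per clean read, and other scalings were not applied to them. TMM factors (0.928, 0.961 and 1.122) would lower telogen beside the other libraries, and scaling to listed conserved miRNAs (1.09, 1.10 and 0.880) would raise it.

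Libraries were compared in pairs with the exact test of Audic and Claverie on the reads, as a two-sided test over every start group of at least 1 TPM in either library of the pair, where a call needs a log2 ratio beyond 1 in either direction and a p under 0.01. Such a test compares 2 libraries and not 2 stages. Catagen over anagen, 35.6% of the 19011 start groups tested were called (15.9% higher and 19.8% lower in catagen), against 2 of the 13 candidate groups tested, both higher. The median log2 ratio was 0.02 for the candidates and 0.02 for all groups. Telogen over anagen, 34.6% of 19643 were called (20.5% higher and 14.1% lower in telogen), against 5 of 11 candidate groups, all higher, and the medians were 0.90 for the candidates and 0.29 for all. Telogen over catagen, 27.3% of 18462 were called (18.1% higher and 9.2% lower in telogen), against 3 of 13, of which 2 were higher, and the medians were 0.01 and 0.24. Scaling moved the median of all groups in telogen over anagen from 0.29 to 0.01 with TMM factors and to 0.60 with the reads of listed conserved miRNAs, and 2 and 6 candidate groups were then called, respectively. With TMM factors these were novel_mir_36, higher, and novel_mir_11, lower in telogen, so novel_mir_1, novel_mir_16, novel_mir_19 and novel_mir_23 were called for this pair with clean-read scaling and with scaling to conserved miRNAs but with neither TMM factors nor median-of-ratios factors.

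Novel_mir_1 had 222, 254 and 811 reads, or 13.9, 14.02 and 30.02 TPM. Anagen and catagen were level (log2 ratio 0.02, -0.25 to 0.28) and telogen stood above both, by a log2 ratio of 1.11 over anagen (0.90 to 1.33) and 1.10 over catagen (0.89 to 1.31). With TMM and median-of-ratios scaling the latter was 0.87 and 0.85 and was not called. The adjusted p of the Audic-Claverie exact test with clean-read scaling, after Benjamini and Hochberg over all start groups, was 2.32e-26 and 5.55e-28. The candidate shares bases 1 to 18 except for A12C with the glycine tRNA tag, where the base of the more-read tag comes first, then the position from the 5′ end, then the base of the candidate. That tag had 8940, 19466 and 28258 reads, or 559, 1075 and 1046 TPM, 44.03 times the reads of novel_mir_1 in all. Its level was thus higher in catagen than in anagen (log2 0.94) where that of novel_mir_1 was not, and 24.8, 13.0 and 28.7 reads of novel_mir_1 were found per 1000 reads of it.

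Novel_mir_19, which shares the seed TTTCCCG with novel_mir_1, had 48, 74 and 172 reads (3 TPM, 4.09 TPM and 6.37 TPM). Its log2 ratio was 1.09 for telogen over anagen (0.62 to 1.58, Audic-Claverie exact test, adjusted p = 4.49e-06) and 0.64 for telogen over catagen (0.24 to 1.05), the latter under the limit on the ratio. It differs from the glycine tRNA tag by C18T, at the first C of CCA. Of its reads, 26.5% had the exact sequence and 66.7% were over 24 nt, the most-read longer tags being gTTTCCCGgccaatgcatcagcttt with 60 reads (11, 17 and 32) and gTTTCCCGgccaatgcatcagctttt with 44 (6, 19 and 19). These tags go on past the candidate and end in T. The exact sequence had 20, 22 and 36 reads, a log2 ratio of 0.09 for telogen over anagen, so the call of novel_mir_19 rests on the longer tags. As background, a tRNA transcript ends at a run of T of its gene until this trailer is removed and CCA is added.

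The other relatives were few beside their neighbours. Novel_mir_2 (C7T) had 12, 18 and 24 reads and novel_mir_9 (G8A) had 9, 10 and 9, both 1 base from the same glycine tRNA tag, which had 1049 and 2024 times their reads. Novel_mir_18 (C8T) had 34, 26 and 38 reads beside a tag of 16584, 34907 and 57537 reads, that is 1113 times as many. It is novel_mir_2 with 1 base more at its 5′ end, and the tag beside it is the glycine tRNA tag with the same added base. Novel_mir_2 and novel_mir_18 thus carry the same substitution but are counted as separate start groups here and below. Reads of novel_mir_18 per 1000 of that tag were 2.05, 0.745 and 0.660. Beside the lysine tRNA tag, with 1547, 1150 and 629 reads, stood novel_mir_5 (G13T) with 5, 4 and 1 reads and novel_mir_28 (C6T) with 3, 6 and 2, which it exceeded 333 and 302 times. In all, 7 of 36 start groups (19.4%) had a neighbour 1 substitution away with at least 10 times their reads. This share was 41.8% over the 79991 start groups with at least as many reads as the least-read candidate, that is 8 over the 3 libraries. The share was thus lower among the candidates than among these start groups, most of which need not be abundant. Whether these reads are sequencing errors, other copies of the same tRNA genes or something else was not tested.

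The base at the T-loop position, the second base of novel_mir_1, was counted over all tags that hold the rest of its sequence, whatever their start. T was read in 91.5% of 12451 reads, A in 6.21%, G in 2.24% and C in 0.0803%. For the glycine tRNA tag the shares were 88.4% T, 9.43% A, 2.02% G and 0.110% C. At the same place of the lysine tRNA tag, G was read in 64.8%, T in 25.4%, A in 8.41% and C in 1.39%. The share of G there was 65.3%, 65.3% and 63.7% in the 3 libraries, and the share of A in the glycine tRNA tag was 11.1%, 10.6% and 8.17%. In tags with the bases of novel_mir_5, few as they are, G was read in 73.1%, 56.0% and 68.9%. Novel_mir_21 lacks a base at this place, between its bases 3 and 4, and tags without a base held 192 reads (0.321%) beside 37547 with G (62.7%), 15989 with T, 5266 with A and 875 with C. Each of these 8 candidates has, at this place, either the base most often read there or no base, in shares that include the candidates' own reads. That a tRNA adenosine stands at this place is taken from general knowledge, and misreading there was not tested. The place lies within the seed of each of the 8.

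Of the 36 start groups, 10 (27.8%) had a most-read tag that ends in CCA, namely those of novel_mir_1, novel_mir_2, novel_mir_5, novel_mir_6, novel_mir_9, novel_mir_18, novel_mir_21, novel_mir_26, novel_mir_28 and novel_mir_44. The share over the same 79991 start groups was 7.54%. Among all clean reads, tags that end in CCA held 2.78% in anagen, 4.72% in catagen and 4.20% in telogen, so their library-wide level was higher in catagen and telogen (log2 0.76 and 0.59 over anagen). Apart from novel_mir_19, ends were sharp in the first set, where 95.8% of the reads of novel_mir_1 (Wilson interval 94.6 to 96.8) and 92.9% of those of novel_mir_18 (86.0 to 96.5) had the exact sequence. Novel_mir_6, novel_mir_26 and novel_mir_44 end in CCA but have no more-read tag 1 substitution away at the same start. Bases 7 to 18 of novel_mir_26 are held by tags with 1161 reads, of which 562 begin 2 bases before its start, beside 15 reads of its start group. A hairpin was matched to a candidate only if it held the whole candidate, and every candidate had at least 1 such hairpin. For all of these the final CCA therefore lies in a predicted hairpin, whose place in the genome was not analysed here. The exact sequences of novel_mir_6, novel_mir_26 and novel_mir_44 made up 65.2% of 23 reads, 60.0% of 15 and 21.1% of 38.

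In the GC-rich set, novel_mir_36 had 113, 303 and 568 reads (7.06, 16.7 and 21.02 TPM). Its log2 ratio was 1.24 for catagen over anagen (0.93 to 1.57, Audic-Claverie exact test, adjusted p = 1.78e-15) and 1.57 for telogen over anagen (1.28 to 1.88, adjusted p = 6.56e-31). Novel_mir_23 had 102, 295 and 368 reads (6.38, 16.3 and 13.6 TPM), with log2 ratios of 1.35 (1.02 to 1.69, adjusted p = 4.64e-17) and 1.10 (0.78 to 1.43, adjusted p = 4.04e-12) in the same test. Novel_mir_16 had 74, 151 and 258 reads (4.63, 8.34 and 9.55 TPM) and passed both limits for telogen over anagen only (log2 1.05, 0.67 to 1.44, adjusted p = 3.29e-08). Anagen was the lowest library for all 3. It was not for novel_mir_25, which had 45, 27 and 58 reads (2.81, 1.49 and 2.15 TPM), and novel_mir_33 had 6, 10 and 12 reads. Tags with a GC content of 75% or more, whatever their sequence, held 3.31%, 3.91% and 5.18% of all reads, a log2 ratio of 0.65 for telogen over anagen, and what part this has in the calls of the 3 candidates was not tested.

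The deposited sequence of these GC-rich candidates was seldom the one that was read. Of the start group reads, 2.75% of 765 were the exact novel_mir_23 (Wilson interval 1.80 to 4.16), 3.05% of 984 the exact novel_mir_36, 12.8% of 483 the exact novel_mir_16, 10% of 130 the exact novel_mir_25 and 14.3% of 28 the exact novel_mir_33. Longer tags made up 95.7% of the reads of novel_mir_23 and 91.1% of those of novel_mir_36. The exact sequence of novel_mir_16 had 11, 39 and 12 reads and was highest in catagen, whereas its 24-nt tag had 5, 10 and 48 reads and was highest in telogen. The length that is counted therefore sets which stage is highest for novel_mir_16. Only 4.31% of the reads of novel_mir_23 and 8.94% of those of novel_mir_36 were an exact part of the predicted hairpin, so most of their reads run on into letters that the hairpin does not have.

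The 5′ ends were examined with every tag that holds bases 5 to 19 of a candidate, wherever it starts. In the median start group, 44.4% of these reads began at the first base of the candidate, with 21 of 36 under 50% and 9 of 36 at 80% or more. The most-read listed tag of 207 conserved miRNAs whose start groups had as many reads as the candidates gave a median of 96.1%, with 74.9% of them at 80% or more and 10.1% under 50%. The conserved tags were chosen as the most read of their miRNA, whatever their start, which favours a high share. Candidates were not chosen so. In 28 of the 36 start groups a candidate was the most-read tag, but this compares only tags of the same start.

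Starts were spread in the first set, from 1.74% at the candidate start in novel_mir_21 to 21.7% in novel_mir_28 (median 10.7%). For novel_mir_21, 71530 reads were counted and 1248 began at its start, but its start group held only 11. Its bases 5 to 19 do not cover the missing base and are shared with the lysine tRNA tags, so this share mostly describes other tags. For novel_mir_1, the 13598 reads with its bases began at 17 places, 1407 (10.3%) at its own first base and 4332 (31.9%) 2 bases before it. Tags with the bases of novel_mir_1 at any start had 3198, 2925 and 7475 reads, or 199.9, 161 and 277 TPM, and the log2 ratio of telogen over anagen was then 0.47 (0.41 to 0.53), under the limit for a call, as was that of telogen over catagen at 0.78 (0.71 to 0.84). The tag tcgtttcccggcccatgcacca alone had 3760 reads (988, 798 and 1974), more than novel_mir_1 itself. Starts were also spread in the GC-rich set, from 4.62% in novel_mir_33 to 29.7% in novel_mir_23 (median 17.3%). Novel_mir_36 had 968 of 4022 reads at its own start and 1169 (29.1%) 1 base after it, which gives another seed. Novel_mir_16 had 476 of 4285 reads at its start, and the tag tggacgaggcgccgccgccccctccc, which begins 6 bases before it, had 8, 83 and 99 reads.

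In the other 23 start groups the median share at the candidate start was 68.4%, and all 9 groups at 80% or more belonged to them. They were novel_mir_15 (99.0% of 96 reads), novel_mir_10 with novel_mir_37 (98.9% of 95), novel_mir_44 (97.4% of 39), novel_mir_29 with novel_mir_42 (93.3% of 30), novel_mir_12 (91.8% of 171), novel_mir_22 (90.6% of 32), novel_mir_14 with novel_mir_27 (88.0% of 25), novel_mir_17 (83.3% of 36) and novel_mir_32 (81.8% of 11). With bases 7 to 18 in place of 5 to 19, 5 of 36 groups were at 80% or more, and novel_mir_17 (75.6%), novel_mir_22 (68.9%), novel_mir_32 (52.4%) and novel_mir_44 (73.6%) were not among them. Of the 3 best-read, novel_mir_12 differed between libraries, as given below. The other 2 were not called, though their intervals are wide and do not show that they were level. Novel_mir_15 had 26, 29 and 43 reads, or 1.63, 1.60 and 1.59 TPM, with log2 ratios of -0.02 for catagen over anagen (-0.84 to 0.80) and -0.03 for telogen over anagen (-0.77 to 0.73). Novel_mir_10 with novel_mir_37 had 41, 34 and 51 reads (2.56, 1.88 and 1.89 TPM), with log2 ratios of -0.45 (-1.15 to 0.24) and -0.44 (-1.06 to 0.19).

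The 3′ ends of these sharp-start groups varied. Novel_mir_15 was read with its exact sequence in 44.9% of 98 reads, and with 1 more base that its hairpin does not hold as tAGAGAAGcactgggggaaagta (10 reads) and tAGAGAAGcactgggggaaagtt (10 reads). Novel_mir_10 with novel_mir_37 had its reads spread over aTCGGCCTtccaccgctcccc (30 reads), the form of 20 nt (22 reads), the form of 19 nt (22 reads) and aTCGGCCTtccaccgctctcc (22 reads), which the hairpin does not contain. Novel_mir_44 had 11, 7 and 20 reads, of which 52.6% were over 24 nt. Novel_mir_17 had 7, 5 and 18 reads with the exact sequence in 73.3%, and novel_mir_22 had 5, 12 and 12 with 79.3%. A tag 1 base from novel_mir_22 (A7G) had 12, 16 and 0 reads, so both forms were read in anagen and catagen and novel_mir_22 alone in telogen. Each library is a pool of goats, and an allele of some animals and an RNA of another locus cannot be told apart here.

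Pairs that share a start group differ in the 3′ end that was deposited. Novel_mir_8 (11 exact reads) and novel_mir_34 (10) share 38 reads (10, 15 and 13), novel_mir_14 (4) and novel_mir_27 (10) share 22 (6, 6 and 10), and novel_mir_29 (4) and novel_mir_42 (10) share 28 (6, 9 and 13). Novel_mir_10 (22) and novel_mir_37 (30) share 126. In each of these pairs the exact counts differ by at most 8 reads, and both share their seed.

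Novel_mir_11 and novel_mir_12 lie on opposite arms, but of different predicted hairpins, and none holds both exact sequences. The hairpins of novel_mir_11, of 85 and 86 nt and both at -28.9 kcal/mol, had 5 reads on the other arm. The predicted hairpin of novel_mir_12, of 85 nt and -28.0 kcal/mol in the fold computed here, holds tags of the other arm with 198 reads (65, 63 and 70), led by atagccagttggggaagaatgc with 61 reads, which is novel_mir_11 with 1 base more at its 5′ end and 1 fewer at its 3′ end. Tags with bases 5 to 19 of novel_mir_11 used both starts alike, 139 reads at its first base and 145 at the base before it, which give different seeds. Novel_mir_11 had 50, 43 and 48 reads (3.13, 2.37 and 1.78 TPM), and its log2 ratio for telogen over anagen was -0.81 (-1.42 to -0.21), within the limit on the ratio (Audic-Claverie exact test, adjusted p = 0.00991). Novel_mir_12 had 20, 18 and 63 reads (1.25, 0.994 and 2.33 TPM) and was called for telogen over catagen (log2 1.23, 0.46 to 2.07, adjusted p = 0.00257 in the same test). With median-of-ratios scaling that ratio was 0.98 and was not called. Over all starts, tags with bases 5 to 19 of novel_mir_11 had 109, 97 and 114 reads and those of novel_mir_12 had 43, 34 and 94. Tags of novel_mir_11 were thus the more read in each library, whichever hairpin they came from. A tag 1 base from novel_mir_12 (C1A) had 21, 11 and 27 reads. Bases 5 to 19 leave out that base, so this tag is included in the counts over all starts and in the share at the start of novel_mir_12.

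Reads of the other arm were found for 10 candidates in all, and for most they were few. The hairpin of novel_mir_41 had 487 reads (166, 101 and 220) on the other arm against 99 on its own, led by ggggaattagctcaagtggtaga with 177 reads, letters that, from general knowledge and without a match to a goat sequence, begin an alanine tRNA of mammals. Novel_mir_41 itself had 9, 17 and 11 reads, with 33.6% of 110 reads at its start. The hairpin of novel_mir_21 had 60 reads on the other arm in 39 tags, the most-read of them with 6 reads. That of novel_mir_7 had 44 reads (7, 20 and 17) in 19 tags, led by tttgcagtaacaggtgtgaacat with 16 reads, and novel_mir_7 had 11, 15 and 21 reads. Starts of novel_mir_7 were spread over 11 places with 29.7% of 158 reads at its own. Novel_mir_11 (5 reads), novel_mir_31 (3), novel_mir_6 (2), novel_mir_17 (2), and novel_mir_29 and novel_mir_42 (1, on a shared hairpin) complete the list. For the other 30 candidates, no read lay on the other arm, which allows up to 3 reads for each.

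Novel_mir_31 and novel_mir_32 are the opposite strands of known miRNAs. Tags that hold the reverse complement of bases 5 to 19 of novel_mir_32 had 99115 reads against 9 of its own start group (3, 1 and 5), and the most-read was the listed miR-205 sequence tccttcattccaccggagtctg with 34893 reads. Those of novel_mir_31 had 402 reads (56, 130 and 216) against 8 (1, 2 and 5), and the most-read was the listed miR-194 sequence tgtaacagcaactccatgtggaa with 276. For every other candidate the opposite strand had 2 reads or fewer.

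Novel_mir_4 was the only candidate called lower with clean-read scaling of start groups. It had 13, 27 and 14 reads (0.813, 1.49 and 0.518 TPM), highest in catagen, with a log2 ratio of -1.52 for telogen over catagen (-2.57 to -0.54, Audic-Claverie exact test, adjusted p = 0.00234) and 0.88 for catagen over anagen (-0.13 to 1.95, adjusted p = 0.136). Its reads were uniform, 90.7% of 54 with the exact sequence (80.1 to 96.0) and 78.3% of 69 at its start, the other 15 beginning 1 base later.

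The 40 candidates carry 35 seeds. TTTCCCG was shared by novel_mir_1 and novel_mir_19, which have different start groups, and the other 4 shared seeds belong to the pairs with a common start. GGGGCCG of novel_mir_23 was also the seed of the most-read listed tag of bta-mir-128-1, and no other candidate had the seed of the most-read tag of any of the 333 conserved miRNAs compared.

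The 54 distinct hairpins predicted for the candidates were 66 to 101 nt long, and the free energy computed for them was -49.0 to -20.7 kcal/mol with a median of -28.7. A single hairpin was given for 27 candidates, and novel_mir_1 had the most, 8, at -26.0 to -21.5 kcal/mol. The lowest energy was that of novel_mir_17 (-49.0), followed by novel_mir_36 (-47.6) and novel_mir_23 (-47.3). The highest was that of novel_mir_38 (-20.7). The start group of novel_mir_38, named here after its values were seen, had 4, 4 and 11 reads with 15.3% of 59 reads at its start, and its letters read, from general knowledge and without a match to a goat sequence, as the start of a histone H2A coding sequence. The remaining novel_mir_30, novel_mir_35, novel_mir_39, novel_mir_40 and novel_mir_43 had 13 to 56 reads each, with 24.1% to 73.5% at the candidate start.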

How the data were processed

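Small RNA of goat skin was sequenced on an Illumina/Solexa instrument, with 1 library for each of anagen, catagen and telogen. The authors removed low-quality and adapter-contaminated reads and reads under 18 nt and collapsed the rest, and the deposited files give the count of reads of each distinct tag, with its length, unnormalised. No alignment enters them, and versions of the programs that filtered and collapsed the reads are not given in the sources used here. Candidates, their predicted hairpins and the 2697 listed conserved tags came from the supplementary tables of the study, of which the conserved list is a shortened copy. Members and lists were chosen with earlier results of these data known.

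Tags were summed by their first 18 nt and divided by clean reads (TPM). Libraries were compared by the Audic-Claverie exact test (two-sided), run over all start groups of at least 1 TPM, with a value of 0 set to 0.01 TPM, and p-values were adjusted after Benjamini and Hochberg. Intervals were exact (Poisson for levels, Clopper-Pearson for ratios) or Wilson (shares). With 1 library per stage no replicated model could be fitted. Hairpins were folded with ViennaRNA 2.7.2. Candidates named with values are those that were called, among the 10 most read, sharing a start or seed, ending in CCA, or having a more-read neighbour, opposite strand or other-arm reads, and 22, 33 and 38 were added after their values were seen. Alternatives were other scalings (TMM from edgeR 4.0.16), tests, minimums and ways of counting tags. The test was checked on simulated counts that held counting error only, so that check cannot speak to variation between pools. Matches to RefSeq miRNAs and proteins, and genome positions, were not analysed here.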

Additional observations from a re-analysis of the deposited data

How the results depend on the processing

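No paired analysis was possible because each stage has 1 library, and no replicate was left out for the same reason. Summed levels were recomputed per clean read only, not with other scalings. The summed level of the candidates then kept its order, lowest in anagen and highest in telogen, with exact sequences (25.9, 30.6 and 42.1 TPM), with tags of 20 nt or longer (54.8, 76.6 and 99.6) and with the first 20 nt shared (53.1, 75.5 and 98.3). It was lowest in telogen when every tag that holds bases 5 to 19 was counted (1775, 1843 and 1517), and 1 candidate made that change: without novel_mir_21, whose bases are shared with the abundant lysine tRNA tags, the same count gave 401, 457 and 612 TPM. Leaving out the 3 most-read start groups gave 31.1, 34.7 and 37.3 TPM. These last 2 alternatives were chosen after seeing the data. The candidates found in all 3 libraries fell to 16 at a minimum of 10 reads, and were 35, as in the full libraries, at equal depth. The median share of reads at the candidate start was 45.3% with bases 3 to 17 and 36.7% with bases 7 to 18.

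For catagen over anagen, 4 candidate groups were called without a limit on the ratio and 1 with exact sequences, in place of 2. For telogen over anagen, 2 were called with median-of-ratios scaling, 2 with TMM and 1 with exact sequences, in place of 5. For telogen over catagen, 1 was called with median-of-ratios scaling and 5 without a limit on the ratio, in place of 3. When edgeR's exact test was given a biological coefficient of variation of 0.4, which is an assumption, 0 candidates were called in each of the 3 pairs, against 9.26%, 9.88% and 5.92% of all start groups. Of 105 results of called candidates under these alternatives, 22 lost the call and none had the other direction. Called candidates whose exact sequence stayed under 1 TPM in both libraries of the pair are not among the 105. These were novel_mir_23 and novel_mir_36 for catagen over anagen, and novel_mir_16, novel_mir_23 and novel_mir_36 for telogen over anagen. The exact novel_mir_16 had 11 reads in anagen and 12 in the deeper telogen library, so per clean read it was lower in telogen, unlike its start group. Other tests, minimums and limits leave the log2 ratio as it was, so direction could change only with other scalings or ways of counting tags. Low read numbers limit what can be seen, since 23 of 36 start groups were under 1 TPM in every library. With no minimum all 36 were tested in each pair, and 2, 5 and 3 were called.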
